A study of Homo sapiens with 18 samples.

Results

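Extracellular matrix and basement membrane genes were followed across 18 Affymetrix whole-transcript arrays of MCF10A, an established line of human mammary epithelium that is not tumorigenic. The set was defined by gene symbol: 38 genes for the basement membrane, the anchoring collagens, the interstitial matrix, the matricellular proteins and the enzymes that cross-link them. Of these, 36 were named by a probe set in the deposited table, each by exactly 1, among 18404 genes measured in all. LAMA3 and COL17A1 were not analysed here. The measured members were 12 basement membrane genes, 1 anchoring collagen (COL7A1), 16 interstitial genes, 4 matricellular genes and 3 cross-linking enzymes.

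There were 6 groups of 3 arrays. All cells had been infected with a lentivirus carrying a short hairpin RNA at a multiplicity of infection of 5, kept in puromycin at 1.5 µg/ml over 4 days, and then grown without it for at least 7 more. They were next transfected transiently with a cDNA vector in lipid, and lysed for RNA 5 days later, with estrogen in the medium throughout that time. In 4 groups the hairpin was the non-targeting shNT: the control arrays (control cDNA), the arrays labelled YAP/TAZ (YAP and TAZ cDNA), the arrays labelled ESR1 (estrogen receptor alpha cDNA) and the arrays labelled YAP/TAZ and ESR1 (both). The remaining groups received control cDNA and a hairpin against LATS1 (labelled shLATS1B) or hairpins against LATS1 and LATS2 (labelled shLATS1+2). The labels give neither the share of cells that took up a cDNA nor whether a group's 3 arrays stand for separate cultures; the p-values therefore measure the spread between these arrays, which may be technical.

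Epithelial cells stand on a basement membrane, a sheet built from a laminin network and a collagen IV network that nidogens and the proteoglycan perlecan link together. Beneath it lies the interstitial matrix of fibrillar collagens, fibronectin, fibrillins and small proteoglycans, most of which is made by fibroblasts. Matricellular proteins are secreted into the matrix and adjust how cells attach to it, and lysyl oxidases cross-link collagen and elastin; LATS1 and LATS2 are the kinases of the Hippo pathway that restrain the coactivators YAP and TAZ, whose known targets include THBS1.

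Promoter sequence is shown for genes with large differences, or with differences in all 5 comparisons with control, that the promoter table holds, and for the collagen IV pair whose starts lie back to back. RefSeq promoter windows (GRCh38.p14; 250 bases before to 50 after the start) were found for 29 of the 38 genes, 35 windows in all; DCN has none there. Each line below gives bases upstream of the transcription start only, written along the gene's strand (the plus strand for the collagen pair), in lower case. Capitals mark the letters GGGCGG (the SP1 motif) or GGAATG (the TEAD motif, read by the DNA-binding partners of YAP and TAZ) on either strand. The windows are FN1 at chr2:215436069-215436198, minus strand; HSPG2 at chr1:21937311-21937430, minus strand; LAMA5 at chr20:62367313-62367472, minus strand; PXDN at chr2:1744516-1744685, minus strand; THBS1 at chr15:39580949-39581078, plus strand; SPARC at chr5:151686916-151686975, minus strand; and the 126 bases between the starts of COL4A1 and COL4A2, which are read in opposite directions, at chr13:110307158-110307283, plus strand.
FN1: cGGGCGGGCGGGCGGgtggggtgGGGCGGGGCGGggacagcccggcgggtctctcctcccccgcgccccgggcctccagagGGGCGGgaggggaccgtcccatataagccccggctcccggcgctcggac
HSPG2: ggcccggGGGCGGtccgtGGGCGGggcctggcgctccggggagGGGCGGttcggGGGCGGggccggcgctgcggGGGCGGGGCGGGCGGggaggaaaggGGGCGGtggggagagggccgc
LAMA5: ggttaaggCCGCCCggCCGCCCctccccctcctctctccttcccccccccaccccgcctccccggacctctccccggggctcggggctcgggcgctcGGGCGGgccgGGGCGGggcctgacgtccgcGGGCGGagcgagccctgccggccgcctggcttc
PXDN: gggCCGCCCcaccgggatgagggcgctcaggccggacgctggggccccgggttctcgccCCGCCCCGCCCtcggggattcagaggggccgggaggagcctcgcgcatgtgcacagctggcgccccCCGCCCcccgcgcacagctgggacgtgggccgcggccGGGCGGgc
THBS1: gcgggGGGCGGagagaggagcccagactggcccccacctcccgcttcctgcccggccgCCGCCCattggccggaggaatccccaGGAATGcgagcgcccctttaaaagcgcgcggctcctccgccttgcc
SPARC: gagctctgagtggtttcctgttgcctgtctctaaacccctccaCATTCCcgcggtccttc
COL4A1/COL4A2: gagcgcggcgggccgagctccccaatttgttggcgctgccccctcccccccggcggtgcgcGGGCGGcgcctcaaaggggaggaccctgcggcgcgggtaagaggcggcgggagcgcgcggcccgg

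The TEAD letters were found, on either strand of the whole window, in 4 of the 35 windows of these genes (COL12A1, FBN1, SPARC and THBS1) and in 14.0% of all 35116 promoter windows. The AP-1 motif TGANTCA was found in 2 of the 35 (LAMA3 and LAMB3) and in 7.7% of all windows. An estrogen response element, GGTCA and TGACC with any 3 bases between them, was found in 0 of the 35 and in 0.1% of all windows. The SP1 letters were found in 28 of the 35 windows, those of 25 of the 29 genes, and in 45.0% of all windows. No match of one motif overlapped a match of another in the windows of these genes. A match describes the letters in the window and nothing about binding.

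Before the members, the arrays were checked against their labels. LATS1 was lower in both knockdown groups, at 7.66 (shLATS1B) and 7.76 (shLATS1+2) against 8.86 in the control arrays, on the deposited log2 scale on which all levels below are given. LATS2 did not fall in the group labelled shLATS1+2 (log2 change 0.0905 ± 0.063, where ± gives the SE of a change throughout; limma, adjusted p = 0.37), and neither YAP1 (-0.0514 ± 0.075; adjusted p = 0.83) nor WWTR1, the gene of TAZ (-0.13 ± 0.089; adjusted p = 0.53), was higher in the arrays labelled YAP/TAZ. WWTR1 was called higher in the shLATS1B arrays by 0.43 and in the arrays with both cDNAs by 0.42 (limma, adjusted p = 0.0015 for each). In the ESR1 arrays YAP1 and WWTR1 were called lower, with changes of -0.28 and -0.37 (limma, adjusted p = 0.014 and 0.0078). ESR1 was higher in the arrays labelled ESR1 by 0.94, and also in the shLATS1B and shLATS1+2 arrays, by 0.85 and 0.88, where no ESR1 cDNA was given. In the arrays with both cDNAs ESR1 was higher than in control by 0.50, to a mean of 6.03 against 6.37 in shLATS1B and 6.40 in shLATS1+2, and LATS1 and LATS2 were called higher by 0.47 and 0.24 (limma, adjusted p = 1.7e-04 and 0.0073). The first principal component of all genes, with 47.3% of the variance, put the control, YAP/TAZ and ESR1 arrays on one side (-23.0 to -10.3) and the YAP/TAZ and ESR1, shLATS1B and shLATS1+2 arrays on the other (9.83 to 22.7). The labels name no batch; where a difference follows that division, a batch and the groups cannot be told apart. Comparisons that stay on one side are YAP/TAZ or ESR1 against control, and those among the other 3 groups.

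Calls were made at an adjusted p below 0.05 (limma across all 18404 genes, Benjamini-Hochberg, two-sided). In the shLATS1B arrays 7 members rose and 7 fell against control (38.9% of 36), where 12.4% of all genes rose and 11.6% fell (24% together). In the shLATS1+2 arrays 5 rose and 10 fell (41.7%), beside 11.8% and 13% of all genes (24.8% together). Against control, the arrays labelled YAP/TAZ had 4 members higher and 4 lower (22.2%), beside 3.16% and 3.84% of all genes (7% together). The ESR1 arrays had 6 higher and 6 lower (33.3%), beside 7.04% and 11.9% (18.9% together). Of all genes called in the ESR1 arrays, 37.1% were higher, a share that went to 21.8% when arrays were centred on their medians. With both cDNAs 6 rose and 8 fell (38.9%), beside 14.7% and 14.7% (29.4% together). The median change of the 36 members lay between -0.0382 (shLATS1+2) and 0.0335 (shLATS1B) over these 5 comparisons, and that of all genes between -0.00796 (shLATS1+2) and 0.00207 (ESR1). All 5 comparisons use the same 3 control arrays and are not independent of each other.

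**Figure D1:**
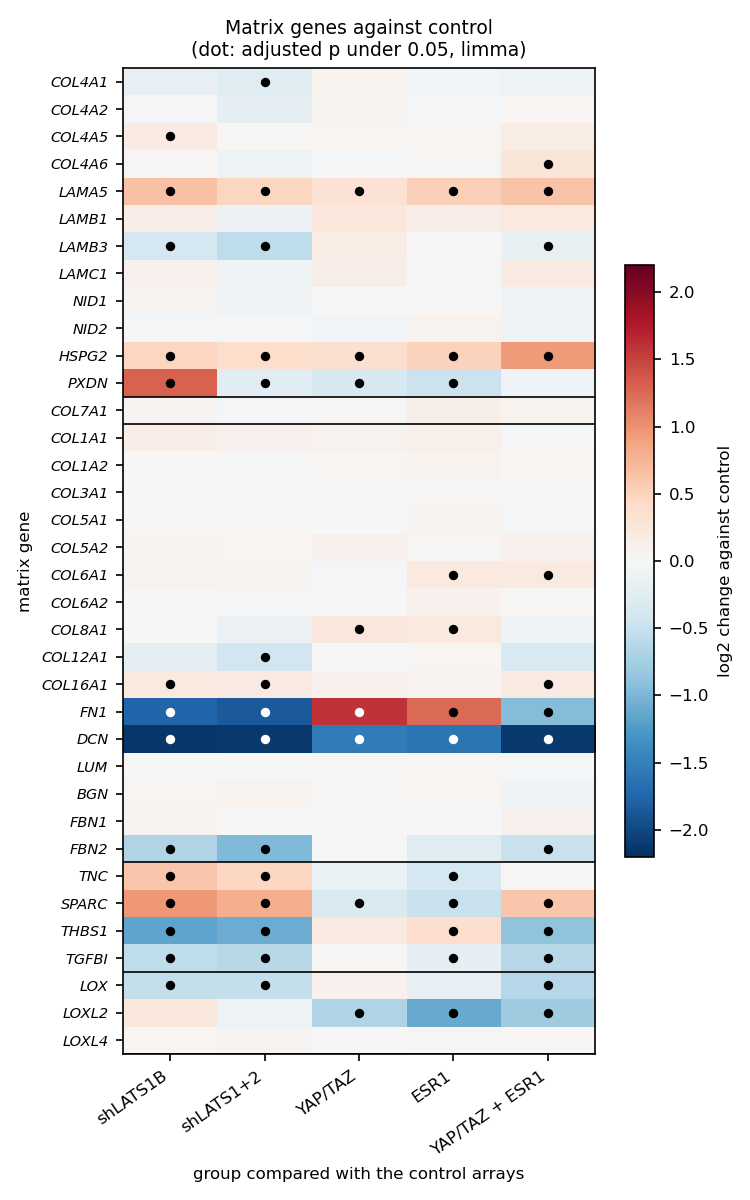
Log2 change of each of the 36 measured genes against the control arrays in the 5 comparisons, with genes in rows by family and comparisons in columns; a mark shows an adjusted p under 0.05 in limma. FN1 has opposite signs in the single cDNA columns and the other columns, DCN is lower in each column, and most fibrillar collagens are near 0.

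Among the collagen IV chains, which form the scaffold of the basement membrane, differences were small. COL4A1 read 6.42, 6.10 and 6.26 in the control arrays and 6.05, 6.01 and 5.91 in the shLATS1+2 arrays, whose ranges did not overlap. It fell there by 0.27 (SE 0.073; limma, adjusted p = 0.011; arrays are left out singly here and below), a call that was lost without control array 1 or shLATS1+2 array 3 (log2 from -0.23 to -0.19, adjusted p from 0.056 to 0.067). Its divergent partner COL4A2 passed the test in none of the 5 comparisons, with changes from -0.21 to 0.0668. COL4A2 was called lower in shLATS1+2 with quantile normalization or without control array 2 (log2 -0.25 and -0.29, limma, adjusted p = 0.033 and 0.034). COL4A1 was called lower in shLATS1B in the same settings (log2 -0.235 and -0.26, limma, adjusted p = 0.021 and 0.016), but not in the main fit. COL4A5 and COL4A6, neighbours on the X chromosome, were each called once. COL4A6 read 5.80, 5.58 and 5.66 in control arrays and 5.99, 5.92 and 5.91 with both cDNAs, with no overlap, a rise of 0.26 ± 0.062 (adjusted p = 0.0039). COL4A5 read 5.91, 5.61 and 5.79 in control arrays and 5.93, 5.96 and 5.97 in shLATS1B arrays, with no overlap; it rose there by 0.18 ± 0.064 (adjusted p = 0.048). The COL4A5 call was lost without control arrays 2 or 3, YAP/TAZ arrays 1 or 3, ESR1 arrays 2 or 3, both-cDNA arrays 2 or 3, shLATS1B arrays 1, 2 or 3, or shLATS1+2 arrays 1 or 2 (log2 from 0.10 to 0.19, adjusted p from 0.051 to 0.27), and it was the least stable of the collagen IV calls against control by the number of such arrays. The mean of the 4 chains differed from control by 0.0034 (shLATS1B), -0.14 (shLATS1+2), 0.0391 (YAP/TAZ), -0.0034 (ESR1) and 0.0853 (both cDNAs).

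Of the 4 laminin chains measured, LAMA5 and LAMB3 were called against control. LAMA5, an alpha chain of laminins in mature epithelial basement membranes, read 7.92, 7.71 and 7.88 in the control arrays, 8.52, 8.51 and 8.41 in shLATS1B, 8.21, 8.35 and 8.36 in shLATS1+2, 8.04, 8.27 and 8.13 in YAP/TAZ, 8.45, 8.38 and 8.23 in ESR1 and 8.40, 8.54 and 8.45 with both cDNAs. The control arrays were below every array of the other 5 groups. LAMA5 rose by 0.64 ± 0.074 in shLATS1B (adjusted p = 5.0e-06), by 0.47 ± 0.074 in shLATS1+2 (1.4e-04) and by 0.52 ± 0.074 in ESR1 arrays (1.2e-04). With both cDNAs the rise was 0.62 ± 0.074 (adjusted p = 5.3e-06), and in YAP/TAZ arrays 0.31 ± 0.074 (0.015). The call in YAP/TAZ arrays was lost without control array 2 or YAP/TAZ array 2 (log2 0.25, adjusted p from 0.092 to 0.097).

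LAMB3, the beta chain of the laminin of hemidesmosomes, went the other way in the knockdown arrays. It read 11.39, 11.23 and 11.37 in control arrays, 10.90, 10.96 and 10.97 in shLATS1B and 10.80, 10.77 and 10.77 in shLATS1+2, so the control arrays lay above both knockdown groups. LAMB3 fell by 0.39 in shLATS1B (SE 0.059; adjusted p = 9.6e-05) and by 0.55 in shLATS1+2 (adjusted p = 2.5e-06). In arrays labelled YAP/TAZ it read 11.44, 11.50 and 11.57, and in ESR1 arrays 11.37, 11.38 and 11.25; neither difference from control passed the test (0.17 and 0.00352; adjusted p = 0.11 and 0.98). With both cDNAs LAMB3 read 11.04, 11.23 and 11.23, with overlap with control, and fell by 0.16 (adjusted p = 0.047). That last call was lost without control arrays 1 or 3, YAP/TAZ array 2, both-cDNA array 1, shLATS1B arrays 1, 2 or 3, or shLATS1+2 arrays 1, 2 or 3 (log2 from -0.16 to -0.10, adjusted p from 0.054 to 0.24). LAMB1 and LAMC1, the other laminin chains measured, passed the test in none of the 5 comparisons, and the mean of the 4 laminins differed from control by 0.12 (shLATS1B), -0.0745 (shLATS1+2), 0.21 (YAP/TAZ), 0.16 (ESR1) and 0.22 (both cDNAs).

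HSPG2 encodes perlecan, the heparan sulfate proteoglycan of basement membranes. It read 6.83, 6.52 and 6.73 in the control arrays, 7.18, 7.15 and 7.15 in shLATS1B, 6.98, 7.14 and 7.16 in shLATS1+2, 6.99, 7.04 and 7.11 in YAP/TAZ, 7.28, 7.22 and 7.10 in ESR1 and 7.54, 7.76 and 7.60 with both cDNAs. The arrays with both cDNAs were the highest, and the control arrays were below all 15 others, with control array 2 lowest. HSPG2 rose by 0.94 ± 0.077 with both cDNAs (1.91-fold; adjusted p = 7.6e-08). Its rises were 0.46 ± 0.077 in shLATS1B (2.3e-04), 0.39 ± 0.077 in shLATS1+2 (0.001), 0.50 ± 0.077 in ESR1 (2.2e-04) and 0.35 ± 0.077 in YAP/TAZ arrays (0.0087). The YAP/TAZ call was lost without control array 2 (log2 0.27, adjusted p = 0.053). With both cDNAs HSPG2 was also above shLATS1B by 0.47 ± 0.077 (adjusted p = 5.8e-04) and above shLATS1+2 by 0.54 ± 0.077 (1.3e-04), comparisons that use no control array. The nidogens NID1 and NID2 had mean levels under 5.208, the 30th percentile of all gene means, below which a level is treated here as dim, and neither was called.

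PXDN encodes peroxidasin, the enzyme that forms the sulfilimine cross-links of collagen IV, and it set the 2 knockdown groups apart. In the shLATS1B arrays it read 8.10, 8.27 and 8.31, above all 15 other arrays. It read 7.04, 6.91 and 6.85 in control arrays, 6.85, 6.73 and 6.55 in shLATS1+2, 6.54, 6.67 and 6.57 in YAP/TAZ, 6.56, 6.45 and 6.40 in ESR1 and 6.84, 6.84 and 6.92 with both cDNAs. PXDN rose in shLATS1B by 1.29 ± 0.076 (2.45-fold; adjusted p = 1.5e-09). In the shLATS1+2 arrays it was lower than in shLATS1B by 1.52 on the log2 scale, a change of -1.52 ± 0.076 (adjusted p = 1.8e-08). PXDN was the 1 member called between the knockdowns, where 0.179% of all genes fell and 0.141% rose (0.321% together). LATS1 itself did not differ between those groups beyond the test (0.0989 ± 0.078; adjusted p = 0.6). PXDN fell against control in the YAP/TAZ arrays by 0.34 (adjusted p = 0.0088) and in the ESR1 arrays by 0.47 (3.6e-04). Its fall of 0.23 in shLATS1+2 (adjusted p = 0.037) was lost without control arrays 1 or 2 or shLATS1+2 arrays 2 or 3 (log2 from -0.24 to -0.15, adjusted p from 0.065 to 0.2).

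**Figure D2:**
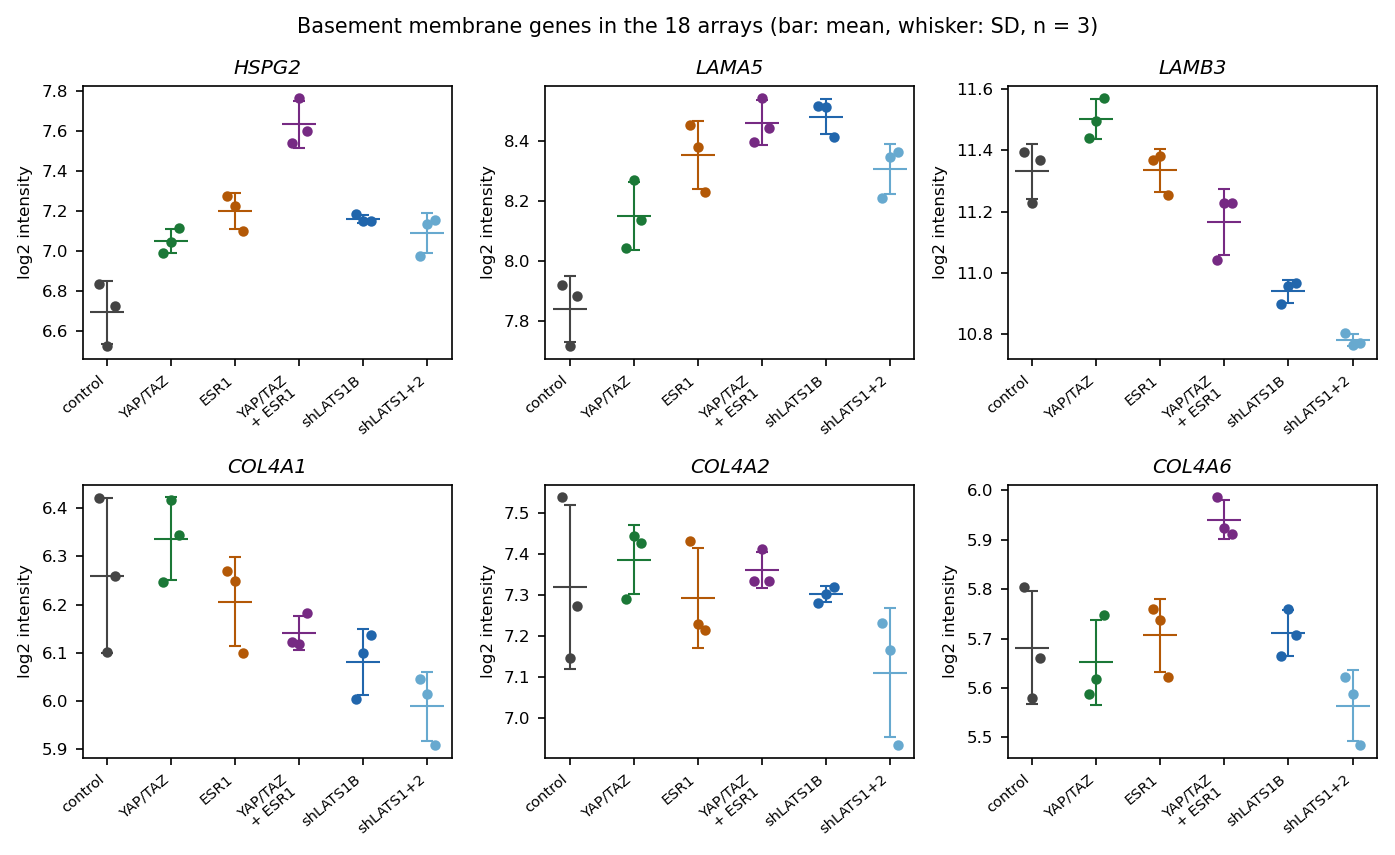
Log2 level in each of the 18 arrays for basement membrane genes, 1 panel per gene, with the 6 groups on the x axis, points for arrays, bars for the mean of 3 and whiskers for the SD. HSPG2 and LAMA5 are lowest in the control arrays and LAMB3 is lowest in the shLATS1+2 arrays.

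COL7A1, the collagen of the anchoring fibrils that fasten the basement membrane to the stroma, was called in none of the 5 comparisons. Its level stayed between 5.53 and 5.99 over all 18 arrays.

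The interstitial genes gave the largest differences of the set, and they came from FN1 and DCN. FN1 encodes fibronectin, which cells assemble into fibrils and bind through integrins. It read 8.80, 8.38 and 8.52 in control arrays, 10.08, 10.17 and 10.21 in YAP/TAZ arrays and 9.96, 9.81 and 9.69 in ESR1 arrays. In shLATS1B arrays FN1 read 6.72, 6.87 and 6.83, in shLATS1+2 arrays 6.69, 6.71 and 6.76 and with both cDNAs 7.48, 7.68 and 7.68. Each single cDNA group was above the control arrays and each of the other 3 groups below them, with no overlap with control in any. FN1 rose by 1.59 ± 0.091 in YAP/TAZ arrays (3.00-fold; adjusted p = 5.2e-09) and by 1.25 ± 0.091 in ESR1 arrays (2.38-fold; adjusted p = 6.5e-08). It fell in the other 3 groups, with log2 changes of -0.95 ± 0.091 with both cDNAs (adjusted p = 4.5e-07), -1.76 ± 0.091 in shLATS1B (3.7e-10) and -1.84 ± 0.091 in shLATS1+2 (2.2e-10). The 2 knockdown groups differed in FN1 by -0.0872 ± 0.091 (adjusted p = 0.72), which did not pass. The arrays with both cDNAs were above shLATS1B by 0.80 ± 0.091 (adjusted p = 1.5e-05).

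DCN encodes decorin, a small leucine-rich proteoglycan that binds collagen fibrils. It read 6.02, 6.77 and 7.21 in the control arrays, which spread more widely than any other group. The other groups read 5.18, 4.95 and 5.26 (YAP/TAZ), 5.06, 4.93 and 5.19 (ESR1), 4.45, 4.58 and 4.59 (both cDNAs), 4.56, 4.55 and 4.45 (shLATS1B) and 4.61, 4.50 and 4.53 (shLATS1+2). Every control array was above every other array, and the other 5 group means were under the dim level of 5.208. The fall in group means was therefore at least 2.75-fold in each, computed as the control mean, of arrays from 6.02 to 7.21, against that level. The fitted changes were -1.54 ± 0.19 (YAP/TAZ; adjusted p = 5.6e-05), -1.60 ± 0.19 (ESR1; 1.8e-05) and -2.12 ± 0.19 (both; 1.9e-07). In shLATS1B it was -2.15 ± 0.19 (adjusted p = 2.5e-07) and in shLATS1+2 -2.12 ± 0.19 (2.8e-07). LUM, the neighbouring gene on chromosome 12 for the related proteoglycan lumican, was dim throughout, at 4.54 to 4.74, and was not called.

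**Figure D3:**
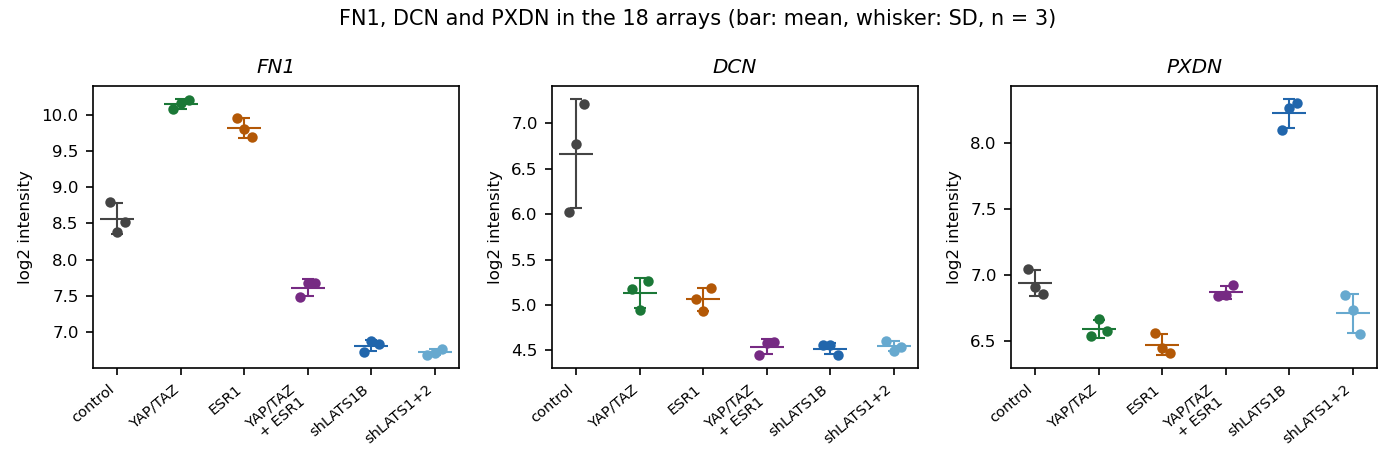
Log2 level of FN1, DCN and PXDN in each of the 18 arrays, with groups on the x axis, points for arrays, bars for the mean of 3 and whiskers for the SD. FN1 is highest in YAP/TAZ and ESR1 arrays, DCN is highest in control arrays, and PXDN is highest in shLATS1B arrays.

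FBN2, the fibrillin-2 of microfibrils, was lower in 3 groups. It read 9.04, 8.52 and 8.69 in control arrays, 8.02, 8.04 and 8.23 in shLATS1B, 7.80, 7.88 and 7.68 in shLATS1+2 and 8.11, 8.30 and 8.40 with both cDNAs. All 9 of those arrays were below the control arrays. FBN2 fell by 0.96 in shLATS1+2 (adjusted p = 1.2e-04), by 0.65 in shLATS1B (0.0035) and by 0.48 with both cDNAs (0.021), each with an SE of 0.15. The call with both cDNAs was lost without control array 1 or both-cDNA array 1 (log2 from -0.40 to -0.34, adjusted p from 0.09 to 0.11). In YAP/TAZ arrays (8.49, 8.94 and 8.76) and ESR1 arrays (8.81, 8.42 and 8.20) FBN2 was not called. Without ESR1 array 1, FBN2 was called lower in the ESR1 arrays (log2 -0.44, adjusted p = 0.025). FBN1, its dim relative, was called nowhere.

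Of the 10 interstitial collagens, 4 were called in at least 1 of the 5 comparisons with control, where 43.6% of all genes were. The 4 differed by under 0.5 on the log2 scale. COL12A1, a collagen that decorates fibrils, read 7.86, 7.44 and 7.66 in control and 7.17, 7.36 and 7.18 in shLATS1+2 arrays, with no overlap. It fell there by 0.42 (SE 0.12; adjusted p = 0.02), a call lost without control arrays 1 or 3 or shLATS1+2 arrays 1 or 3 (log2 from -0.42 to -0.32, adjusted p from 0.052 to 0.11). With both cDNAs COL12A1 was not called (-0.34 ± 0.12, limma, adjusted p = 0.053). It was called lower there without control array 2, YAP/TAZ array 1, ESR1 arrays 1 or 3, or both-cDNA array 3 (log2 from -0.44 to -0.34, adjusted p from 0.019 to 0.044). COL8A1, a short-chain collagen, was dim in control arrays (5.11, 5.12 and 5.09) and read 5.28, 5.49 and 5.28 in YAP/TAZ and 5.20, 5.47 and 5.30 in ESR1 arrays. Both groups were above the control arrays. It was called higher by 0.25 ± 0.067 (adjusted p = 0.035) and 0.22 ± 0.067 (0.03), or at least 1.11-fold and 1.09-fold against the dim level. The COL8A1 call was lost in YAP/TAZ arrays without control arrays 1, 2 or 3 or YAP/TAZ array 2 (log2 from 0.18 to 0.25, adjusted p from 0.073 to 0.2) and in ESR1 arrays without control arrays 1, 2 or 3 or ESR1 arrays 2 or 3 (log2 from 0.15 to 0.23, adjusted p from 0.062 to 0.18).

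COL6A1, a chain of the beaded filaments of collagen VI, read 6.15, 6.17 and 6.29 in control, 6.30, 6.51 and 6.42 in ESR1 and 6.37, 6.44 and 6.39 in both-cDNA arrays. Both groups were above the control arrays. Its rises were 0.21 ± 0.061 (adjusted p = 0.025) and 0.19 ± 0.061 (0.023). The ESR1 call was lost without control arrays 1 or 2 or ESR1 arrays 2 or 3 (log2 from 0.16 to 0.20, adjusted p from 0.078 to 0.14), and the both-cDNA call without control arrays 1 or 2 or both-cDNA arrays 2 or 3 (log2 from 0.17 to 0.20, adjusted p from 0.052 to 0.088). Its neighbour on chromosome 21, COL6A2, was not called. COL16A1, a fibril-associated collagen, read 5.73, 5.69 and 5.68 in control, 5.86, 5.89 and 5.98 in shLATS1B, 5.86, 5.92 and 5.87 in shLATS1+2 and 6.005, 5.81 and 5.84 in both-cDNA arrays. All 3 groups were above the control arrays. It rose by 0.21 ± 0.062, 0.18 ± 0.062 and 0.18 ± 0.062 in those groups (adjusted p = 0.021, 0.041 and 0.036). These calls were lost without control arrays 2 or 3 or shLATS1B array 3 (log2 from 0.17 to 0.20, adjusted p from 0.06 to 0.1) in shLATS1B, without control arrays 1, 2 or 3, YAP/TAZ array 1, shLATS1B array 2, or shLATS1+2 arrays 1, 2 or 3 (log2 from 0.16 to 0.20, adjusted p from 0.051 to 0.13) in shLATS1+2, and without control arrays 2 or 3 or both-cDNA array 1 (log2 from 0.12 to 0.18, adjusted p from 0.089 to 0.18) with both cDNAs.

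The classical fibrillar collagens COL1A1, COL1A2, COL3A1, COL5A1 and COL5A2 and the proteoglycan BGN were called in no comparison with control. COL5A2 was dim, and COL1A2 and COL3A1 read 5.14 to 5.42 and 5.19 to 5.40, around the dim level. Together with COL4A2, LAMB1, LAMC1, NID1, NID2, COL7A1, COL6A2, LUM, FBN1 and LOXL4, they made up 16 members never called against control, whose changes ran from -0.21 to 0.23. Of these 16, 6 were dim. The other 20 of the 36 members were called at least once against control, where 43.6% of all genes were.

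The basement membrane genes were set against the interstitial genes as the difference of their mean levels within an array, a description with no test. That difference was 1.20 ± 0.078 in the control arrays (SD, n = 3), 1.24 ± 0.024 in YAP/TAZ and 1.24 ± 0.086 in ESR1 arrays. It was 1.59 ± 0.039 with both cDNAs, 1.66 ± 0.033 in shLATS1B and 1.45 ± 0.031 in shLATS1+2 arrays. The difference was thus wider than in control by 0.45 in shLATS1B, 0.38 with both cDNAs and 0.24 in shLATS1+2. Without FN1 and DCN, and then PXDN, genes chosen after their values were seen, the widening was recomputed. Without FN1 and DCN these values became 0.21, 0.19 and 0.0056. Without PXDN as well they were 0.11, 0.21 and 0.02, so that most of the widening in both knockdown groups was that of these 3 genes. In YAP/TAZ and ESR1 arrays FN1 rose and DCN fell within the interstitial mean, and the score differed from control by 0.0388 and 0.0374. These values became 0.0366 and 0.0088 without FN1 and DCN, and 0.0751 and 0.0569 without PXDN as well. The mean of the 14 interstitial genes without FN1 and DCN differed from control by between -0.0745 (shLATS1+2) and 0.0525 (ESR1).

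All 4 matricellular genes, chosen with earlier results of these data known, were called in both knockdown groups. Of all genes, 24% (shLATS1B) and 24.8% (shLATS1+2) were called. SPARC, a collagen-binding glycoprotein also called osteonectin, read 10.10, 10.22 and 10.16 in control, 11.08, 11.15 and 11.10 in shLATS1B, 10.98, 10.97 and 10.92 in shLATS1+2 and 10.73, 10.79 and 10.77 with both cDNAs. In YAP/TAZ arrays it read 9.90, 9.74 and 9.89 and in ESR1 arrays 9.65, 9.68 and 9.69. The knockdown and both-cDNA groups lay above the control arrays and the single cDNA groups below, with no overlap. SPARC rose by 0.95 ± 0.047 in shLATS1B (1.93-fold; adjusted p = 2.1e-10), 0.80 ± 0.047 in shLATS1+2 (1.7e-09) and 0.60 ± 0.047 with both cDNAs (3.6e-08). It fell by 0.32 in YAP/TAZ (adjusted p = 3.4e-04) and 0.48 in ESR1 arrays (2.1e-06).

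THBS1, thrombospondin-1, was low in the groups where SPARC was high. It read 11.96, 11.78 and 11.85 in control, 10.67, 10.76 and 10.69 in shLATS1B, 10.80, 10.87 and 10.65 in shLATS1+2, 10.86, 11.10 and 11.00 with both cDNAs, 11.99, 12.08 and 12.12 in YAP/TAZ and 12.28, 12.29 and 12.12 in ESR1 arrays. All 9 arrays of the knockdown and both-cDNA groups were below the control arrays, and all 3 ESR1 arrays above. THBS1 fell by 1.15 in shLATS1B (SE 0.072; adjusted p = 3.4e-09), 1.09 in shLATS1+2 (7.3e-09) and 0.88 with both cDNAs (7.1e-08). It rose in ESR1 arrays by 0.37 ± 0.072 (adjusted p = 0.0016) and did not pass in YAP/TAZ arrays (0.20 ± 0.072; 0.13).

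TNC, tenascin-C, read 6.02, 5.83 and 5.91 in control, 6.55, 6.59 and 6.47 in shLATS1B, 6.56, 6.21 and 6.35 in shLATS1+2 and 5.57, 5.64 and 5.39 in ESR1 arrays. The knockdown arrays were above control and the ESR1 arrays below it. TNC rose by 0.62 ± 0.088 and 0.45 ± 0.088 in the knockdown groups (adjusted p = 5.0e-05 and 9.4e-04) and fell by 0.38 in ESR1 arrays (0.0054). It read 5.68, 5.93 and 5.73 in YAP/TAZ and 5.89, 5.96 and 5.99 in both-cDNA arrays, which overlapped control.

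TGFBI, a secreted protein that binds collagens and integrins, read 11.82, 11.75 and 11.77 in control, 11.22, 11.21 and 11.22 in shLATS1B, 11.25, 11.24 and 11.04 in shLATS1+2 and 11.14, 11.17 and 11.20 with both cDNAs. It was lower in all 9 arrays of those groups than in any control array. TGFBI fell by 0.56, 0.60 and 0.61 (adjusted p = 4.1e-07, 1.9e-07 and 1.1e-07). In ESR1 arrays (11.63, 11.57 and 11.55) it fell by 0.20 (adjusted p = 0.014), a call lost without control array 1 or ESR1 array 3 (log2 from -0.18 to -0.17, adjusted p from 0.056 to 0.061). YAP/TAZ arrays, at 11.78, 11.86 and 11.79, were not called.

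**Figure D4:**
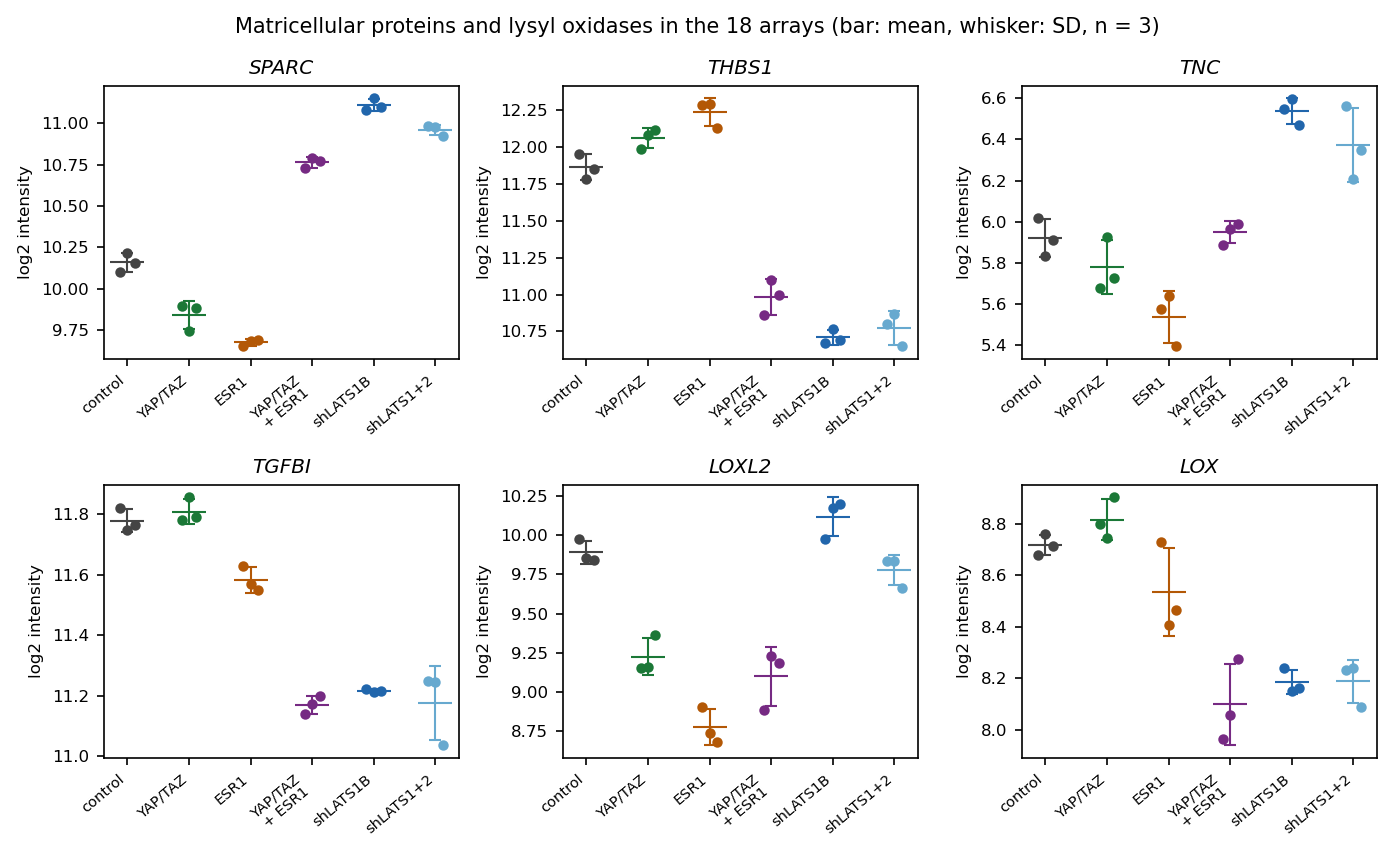
Log2 level of the matricellular genes and the cross-linking enzymes in each of the 18 arrays, with groups on the x axis, points for arrays, bars for the mean of 3 and whiskers for the SD. SPARC is above the control arrays and THBS1 below them in the knockdown groups and with both cDNAs, and LOXL2 is lowest in the ESR1 arrays.

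The 2 lysyl oxidases that were called differed in the groups concerned. LOX, the founding member of the family, read 8.68, 8.76 and 8.71 in control, 8.24, 8.15 and 8.16 in shLATS1B, 8.23, 8.24 and 8.09 in shLATS1+2 and 7.96, 8.06 and 8.27 with both cDNAs. All 9 of those arrays were below the control arrays. It fell by 0.53, 0.53 and 0.62 (SE 0.083; adjusted p = 1.3e-04, 1.4e-04 and 2.1e-05). The single cDNA groups, YAP/TAZ at 8.80, 8.74 and 8.90 and ESR1 at 8.73, 8.41 and 8.46, were not called. Without ESR1 array 1, LOX was called lower in the ESR1 arrays (log2 -0.28, adjusted p = 0.011). LOXL2 fell in the 3 groups labelled YAP/TAZ, ESR1 or both. It read 9.97, 9.85 and 9.84 in control, 9.15, 9.16 and 9.36 in YAP/TAZ, 8.91, 8.74 and 8.68 in ESR1 and 8.88, 9.23 and 9.18 in both-cDNA arrays, with the control arrays above all 9. Its falls were 0.66 (adjusted p = 2.2e-04), 1.11 (4.1e-07) and 0.79 (5.2e-06). In the knockdown groups LOXL2 read 9.97, 10.17 and 10.20 (shLATS1B) and 9.83, 9.83 and 9.66 (shLATS1+2) and was not called (0.23 ± 0.093 and -0.11 ± 0.093; adjusted p = 0.097 and 0.48). LOXL4 was dim and was not called.

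Whether the change with the YAP/TAZ label differed in the presence of the ESR1 label was tested as the interaction of the cDNAs. It was called in 12 of 36 members, 6 with a positive and 6 with a negative sign, beside 11.4% and 7.68% of all genes (19.1% together). The share of positive signs among all genes called was 59.7%, and 72.7% with arrays centred on their medians. The test crosses the division of the arrays described above, since the both-cDNA arrays stand on one side and the other 3 groups on the other, so that for it a batch and the groups cannot be told apart. FN1 had the largest value, -3.79 ± 0.13 (adjusted p = 5.0e-12): the YAP/TAZ label went with 1.59 without ESR1 and -2.21 with it. In THBS1 the interaction was -1.45 ± 0.10 (adjusted p = 4.2e-08) and in SPARC 1.40 ± 0.066 (3.0e-10). SPARC differed with the YAP/TAZ label by -0.32 without ESR1 and 1.09 with it.

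For DCN the interaction was 1.02 ± 0.27 (adjusted p = 0.014). The sum of its single changes would put the both-cDNA level at 3.53, under 3.56, the lowest value in the whole table, while the measured level was 4.54. No value in the table was as low as that sum. Whether the low end of the scale has a part in this interaction was not tested. LOXL2 had an interaction of 0.99 ± 0.13 (adjusted p = 5.9e-05) and PXDN of 0.74 ± 0.11 (1.2e-04). TNC (0.55) was also positive, and COL8A1 (-0.56), LOX (-0.53), TGFBI (-0.44) and LAMB3 (-0.34) were negative, with adjusted p from 4.5e-04 to 0.0093. COL4A6, at 0.26 ± 0.088 (adjusted p = 0.045), lost its call without control arrays 1 or 3, YAP/TAZ arrays 1 or 2, ESR1 arrays 2 or 3, both-cDNA arrays 1, 2 or 3, shLATS1B arrays 1, 2 or 3, or shLATS1+2 arrays 1 or 2 (log2 from 0.20 to 0.28, adjusted p from 0.0502 to 0.12). The LAMB3 call was lost with arrays centred on their medians (-0.26, adjusted p = 0.075).

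**Figure D5:**
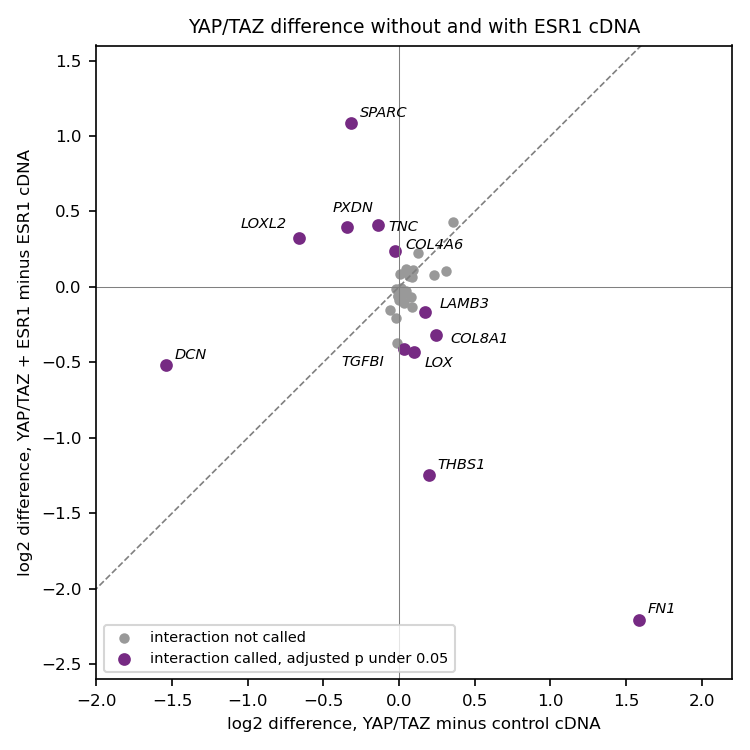
Log2 change with the YAP/TAZ label without ESR1 (x axis) and with ESR1 (y axis), 1 point per measured gene, with the diagonal where the changes are equal. FN1, THBS1, SPARC, LOXL2 and DCN lie farthest from the diagonal, and most other genes lie near the origin.

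The arrays with both cDNAs were compared with the knockdown arrays, which lie on the same side of the first component. Against shLATS1B, 5 members were higher and 4 lower, beside 5.81% and 5.3% of all genes (11.1% together). Higher were FN1, HSPG2, COL4A6, LAMB3 and THBS1, and lower were PXDN (-1.36), LOXL2 (-1.02), TNC (-0.59) and SPARC (-0.34). The calls of COL4A6 (0.23), LAMB3 (0.23) and THBS1 (0.28) were lost without single arrays: COL4A6 without both-cDNA arrays 1 or 2 or shLATS1B arrays 1 or 3 (log2 from 0.21 to 0.24, adjusted p from 0.058 to 0.1), LAMB3 without both-cDNA arrays 2 or 3 or shLATS1B array 1 (log2 from 0.19 to 0.20, adjusted p from 0.089 to 0.1), and THBS1 without both-cDNA arrays 2 or 3 or shLATS1B arrays 1 or 3 (log2 from 0.22 to 0.27, adjusted p from 0.063 to 0.12). Against shLATS1+2, 7 were higher and 3 lower, beside 10.2% and 9.62% (19.8% together). Here FN1 differed by 0.89 ± 0.091 (adjusted p = 4.2e-06), LAMB3 by 0.39 ± 0.059 (2.5e-04) and LOXL2 by -0.68 ± 0.093 (9.5e-05). LAMB1 (0.34), FBN2 (0.48) and THBS1 (0.21) were called higher too, but LAMB1 lost its call without both-cDNA arrays 2 or 3 or shLATS1+2 arrays 2 or 3 (log2 from 0.25 to 0.35, adjusted p from 0.065 to 0.18), FBN2 without both-cDNA arrays 2 or 3 or shLATS1+2 arrays 1 or 3 (log2 from 0.42 to 0.49, adjusted p from 0.065 to 0.13), and THBS1 without control array 3, YAP/TAZ arrays 1, 2 or 3, ESR1 array 2, both-cDNA arrays 2 or 3, shLATS1B arrays 1, 2 or 3, or shLATS1+2 arrays 1 or 3 (log2 from 0.15 to 0.23, adjusted p from 0.052 to 0.25).

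Beyond the members, other matrix genes were counted in 5 lists, beside the 24% (shLATS1B), 24.8% (shLATS1+2), 7% (YAP/TAZ), 18.9% (ESR1) and 29.4% (both cDNAs) of all genes called; a share near these is no result about a list. Of 19 other basement membrane genes, 6 rose and 1 fell in shLATS1B, 6 and 2 in shLATS1+2, 3 and 1 in YAP/TAZ, 3 and 1 in ESR1, and 6 and 1 in both-cDNA arrays, or 36.8%, 42.1%, 21.1%, 21.1% and 36.8% of the list in that order. LAMB2, a beta chain that can pair with LAMA5, rose by 1.10 ± 0.098 with both cDNAs (adjusted p = 1.9e-07) and by 0.34 to 0.87 in the other 4 groups. SMOC1, a calcium-binding basement membrane protein, rose by 1.69 ± 0.096 in shLATS1B (adjusted p = 1.0e-09) and fell in YAP/TAZ arrays, where its change was -0.44 ± 0.096 (0.0087). Of 26 other interstitial and elastic fibre genes, 5 rose and 4 fell in shLATS1B, 3 and 3 in shLATS1+2, 3 and 1 in YAP/TAZ, 3 and 3 in ESR1, and 3 and 3 in both-cDNA arrays, or 34.6%, 23.1%, 15.4%, 23.1% and 23.1% of the list in that order. LTBP1, which tethers latent TGF-beta to the matrix, fell in all 5 groups, by 2.22 in shLATS1+2 (adjusted p = 6.2e-11).

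Of 14 other matricellular genes, 4 rose and 1 fell in shLATS1B, 5 and 2 in shLATS1+2, 4 and 0 in YAP/TAZ, 6 and 1 in ESR1, and 5 and 2 in both-cDNA arrays, or 35.7%, 50%, 28.6%, 50% and 50% of the list in that order. CCN1, a target of YAP and TAZ, rose by 1.08 ± 0.088 in YAP/TAZ arrays (adjusted p = 4.3e-07), where neither YAP1 nor WWTR1 was higher, and by 0.89 ± 0.088 in shLATS1B (9.1e-07). The target THBS1 was not called in YAP/TAZ arrays (0.20, limma, adjusted p = 0.13). In shLATS1B its change was -1.15 (limma, adjusted p = 3.4e-09). Whether these changes follow YAP and TAZ was not tested. Of 22 collagen assembly enzymes, 6 rose and 4 fell in shLATS1B, 3 and 6 in shLATS1+2, 2 and 1 in YAP/TAZ, 2 and 6 in ESR1, and 4 and 5 in both-cDNA arrays, or 45.5%, 40.9%, 13.6%, 36.4% and 40.9% of the list in that order. TGM2, the transglutaminase that cross-links fibronectin and other matrix proteins, rose by 2.40 ± 0.082 with both cDNAs (adjusted p = 1.5e-12) and by 0.45 to 2.13 in the other 4. P4HA1, a catalytic subunit of collagen prolyl 4-hydroxylase, fell in all 5 groups, by between 0.24 (shLATS1B) and 0.66 (ESR1). Of 10 matrix receptors other than integrins, 3 rose and 2 fell in shLATS1B, 2 and 3 in shLATS1+2, 0 and 1 in YAP/TAZ, 0 and 3 in ESR1, and 3 and 1 in both-cDNA arrays, or 50%, 50%, 10%, 30% and 40% of the list in that order.

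Markers of other cells were read beside these genes, since fibroblasts make much of the interstitial matrix and fewer cells of a type cannot be told apart from less RNA per cell in bulk RNA. Of 10 fibroblast markers, 5 were dim (PDGFRA, PDGFRB, THY1, DPT and TCF21), and their summed linear level was 909 to 926 in control, 836 to 867 in YAP/TAZ, 809 to 862 in ESR1, 784 to 801 in both-cDNA, 839 to 902 in shLATS1B and 773 to 872 in shLATS1+2 arrays. It was highest in the control arrays, as DCN was; without the marker FAP the control range was 808 to 865 and the shLATS1B range 809 to 872, which overlap. Their part in the fall of DCN was not tested. Leukocyte (6 of 8), endothelial (6 of 8) and adipocyte (5 of 5) markers were mostly dim. The 6 general epithelial markers and the 5 basal mammary markers measured were all above the dim level. Marker calls are counted beside the shares of all genes. Of all genes, 11.6% fell and 12.4% rose in shLATS1B, 13% and 11.8% in shLATS1+2, and 14.7% and 14.7% with both cDNAs. In YAP/TAZ arrays 3.84% fell and 3.16% rose, and in ESR1 arrays 11.9% and 7.04%. The basal sum ran from 14778 to 16569 in control arrays and from 9857 to 11186 in shLATS1+2 arrays, where 4 of 5 basal markers fell. It ran from 11472 to 11998 in shLATS1B arrays, where 4 fell, and from 11469 to 12534 in both-cDNA arrays, where 4 fell. LAMB3 was lower in these 3 groups too. The basal sum ran from 14064 to 14689 in YAP/TAZ arrays, below control, and from 12328 to 15031 in ESR1 arrays. In each, 2 of 5 basal markers fell, and LAMB3 was not called there. The epithelial sum ran from 8960 to 9999 in control and 16166 to 16978 in shLATS1B arrays. It ran from 14422 to 16210 in shLATS1+2 and 14008 to 15166 in both-cDNA arrays. Of its 6 markers, 4, 4 and 5 rose in shLATS1B, shLATS1+2 and both-cDNA arrays. In YAP/TAZ arrays it ran from 10068 to 10319, above control, and 1 of 6 rose. In ESR1 arrays it ran from 9783 to 12057, and 2 of 6 rose. FN1 was higher than control in both of those groups. FN1, THBS1, FBN2, TGFBI and LOX were lower and SPARC higher in the shLATS1B, shLATS1+2 and both-cDNA groups. The part of the basal and epithelial markers in those differences and in that of LAMB3 was not tested.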

How the data were processed

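Total RNA (100 ng per sample) was hybridised to Affymetrix whole-transcript arrays, 3 per group. The deposited table gives log2 expression values per probe set; per the submitters' processing notes the tool was affy, and a background correction, normalization or genome build was not given in the sources used here. Medians of the arrays ran from 5.49 to 5.62 and replicates correlated at 0.993 to 0.999. Of 32321 probe sets, 19158 had 1 gene symbol, 1388 several and 11775 none; symbols were matched to RefSeq (GRCh38.p14) by gene ID (19128), and the brightest probe set was kept for each of 18404 genes. limma 3.58.1 in R 4.3.3 was fitted to all 18 arrays with 1 mean per group (12 residual degrees of freedom), two-sided, with Benjamini-Hochberg adjustment over all genes. No array was dropped. The number of arrays limits the precision. FN1, DCN, PXDN and, per family, up to 4 called members with the largest change are given in every array; of wider lists, counts and examples. The steps were tested on simulated data. Members, lists and rules were chosen with earlier results of these data known. Alternatives covered centring, quantile normalization, probe set choice, a filter on dim genes, a replicate block and leaving out arrays.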

Additional observations from a re-analysis of the deposited data

Results flagged for a closer look

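For 12 members the change with the YAP/TAZ label differed between arrays with and without the ESR1 label. This was limma's test of the difference itself (adjusted p under 0.05), which 33.3% of the members and 19.1% of all genes passed. On the first principal component the both-cDNA arrays lay apart from the control, YAP/TAZ and ESR1 arrays. The test therefore cannot separate a batch from the labels. The value, the log2 change with ESR1 minus that without it, was -3.79 for FN1, -1.45 for THBS1, -0.56 for COL8A1, -0.53 for LOX, -0.44 for TGFBI and -0.34 for LAMB3, whose call was lost with arrays centred on their medians (-0.26, adjusted p = 0.075). It was 1.40 for SPARC, 1.02 for DCN, 0.99 for LOXL2, 0.74 for PXDN, 0.55 for TNC and 0.26 for COL4A6. The COL4A6 call was lost with the replicate block (limma, adjusted p = 0.058) and when any of many single arrays was left out. DCN was under the dim level of 5.208 in each of the groups other than control. PXDN also differed between the 2 knockdown groups, with shLATS1+2 minus shLATS1B at -1.52. It was higher than control in the arrays labelled shLATS1B. In those labelled shLATS1+2, where LATS2 was not lower, PXDN was called lower than control (log2 -0.23, limma, adjusted p = 0.037). That call was lost without control arrays 1 or 2 or shLATS1+2 arrays 2 or 3.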

How the results depend on the processing

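Of 324 member values, 95 were called; 70 calls held under every one of the 27 alternatives (9 settings, and 18 that left out 1 array each) that gave a value (7 of them, DCN's included, have none with dim genes left out), 25 were lost under at least 1 (23 of them without a single array) and 0 changed sign. Without ESR1 array 1 and shLATS1+2 array 3, the count of all genes called went from 1289 to 1945 (YAP/TAZ), from 3487 to 5776 (ESR1) and from 3512 to 5952 (interaction); the cause was not tested. With the fit limited to the groups compared, which has fewer arrays, 1126 genes were called for ESR1. With all probe sets tested, members higher with both cDNAs than in shLATS1+2 went from 7 to 4. Over all alternatives, 34 of 8676 member values were called where the main fit gave no call. With dim genes left out, the basement membrane minus interstitial difference was 1.30 in control, 1.64 with both cDNAs, 1.72 in shLATS1B and 1.48 in shLATS1+2 arrays, since fewer genes enter it; in YAP/TAZ and ESR1 arrays it was 1.24 and 1.21, and its difference from control turned from 0.0388 and 0.0374 to -0.0639 and -0.0884. Leaving out 1 array at a time, all genes called ran from 848 to 1708 (YAP/TAZ), 2299 to 5461 (ESR1), 33 to 110 (shLATS1+2 against shLATS1B), 2145 to 4585 (both cDNAs against shLATS1+2) and 2593 to 5607 (interaction). Members higher ran from 1 to 4 (YAP/TAZ), 4 to 9 (both cDNAs against shLATS1+2) and 2 to 5 (both cDNAs against shLATS1B). The labels do not say whether replicate numbers pair the arrays. Deviations of same-numbered arrays correlated above 0.1 in 13 of 45 pairs (from -0.694 to 0.631, median -0.0832), a description that does not settle it. With the replicate block, 7 member calls were lost and 0 gained, and members called higher and lower became 6 and 7 (shLATS1B), 4 and 10 (shLATS1+2), 5 and 7 (both cDNAs), 5 and 3 (both cDNAs against shLATS1+2) and 5 and 6 (interaction). Dim genes limit what can be seen in NID1, NID2, COL5A2, COL8A1, DCN, LUM, FBN1 and LOXL4.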

Other observations

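Within groups, arrays of 1 number were often high or low for many members together. Control array 1 was the highest of the 3 control arrays for 11 of 12 basement membrane genes and for 25 of all 36 members. ESR1 array 3 was the lowest of its group for 12 of 12 basement membrane genes, and shLATS1+2 array 3 for 22 of 36 members.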
